A study of Mus musculus with 21 samples.

Results

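General capillary endothelial cells (gCap) of the lung were chosen by their own transcripts, as cells of the unchallenged lung and lung metastasis TME libraries (TME, tumor microenvironment) with at least 1 UMI (unique molecular identifier, 1 counted transcript) of at least 3 of the 7 genes Gpihbp1, Npr3, Glp1r, Tmem100, Kit, Ptprb and Sema3g, and with no UMI of Vwf, Slc6a2, Car4, Ednrb, Ptprc or Col1a2. This rule found 1425 cells among the 45034 cells of these libraries, 1124 of 37386 in unchallenged lung and 301 of 7648 in the metastasis. Unchallenged lung replicates 1, 4, 5 and 6 held 210, 452, 314 and 148 gCap. Metastasis TME replicates 1-3, 4, 5 and 6 held 43, 16, 200 and 42. The whole series came to 100359 cells once 9924 repeated barcodes were dropped. Under the same gene criteria 9 of 6477 primary tumor TME cells and 3 of 48848 sorted melanoma cells would have entered, and they are not used here.

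The study profiled single cells of melanoma, its lung metastases and normal lung to describe the stroma of the metastasis. Fragments of MT-ret melanoma, a tumor of mice carrying the ret oncogene under a metallothionein promoter, were grafted under the skin of young adult mT/mG mice of both sexes, the primary tumor was resected and lung metastases were collected later. In mT/mG mice every host cell carries membrane tdTomato, and no Cre was present in any group, so host cells were red and grafted melanoma cells were unlabelled. Cells were stored frozen as suspensions and sorted for living tdTomato+ or tdTomato+ CD45- cells, and the sources used here do not say which sort a library had. Unchallenged lung came from mT/mG mice in 4 libraries, each named for 1 mouse. The study's methods give fewer unchallenged lungs than that. The library name taken as replicate 1 carries another replicate number and was matched to its title by elimination. The lung metastasis TME is counted here as 4 libraries, of which replicates 4, 5 and 6 are 1 mouse each. The cells of replicate 1-3 carry separate library names of 1 mouse each under 1 sample title. They were summed here as 1 library, so the spread between those mice does not enter any test. The cells under the names of replicates 7 and 8 equal those of replicates 5 and 6 and were counted once. Those names carry other mouse numbers, so the mouse behind each of these libraries is uncertain. Melanoma (MM) cells of the same model were sorted as tdTomato- cells and serve here as the profile of melanoma RNA. That profile pools MM libraries of the primary tumor, with 30419 and 6481 cells, and of the metastasis, with 638 and 11310 cells.

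The alveolar capillary bed is built of general capillary cells and aerocytes. General capillary cells carry Gpihbp1, which anchors lipoprotein lipase on the vessel wall, together with Kit, the stem cell factor receptor, and Plvap, a diaphragm protein, and are known as the cells from which both capillary types are replaced after injury. Aerocytes carry Car4 and Ednrb, lie over the thin gas exchange surface and lack Plvap. Venous endothelium carries Vwf, and lymphatic endothelium is set apart by the transcription factor Prox1.

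The depth of the gCap sums ran from 61431 UMIs in metastasis replicate 4 to 1634618 in unchallenged lung replicate 4. The median UMIs per gCap ran from 1427.5 to 4166. The sums of metastasis replicates 1-3 and 6 held 78139 and 105359 UMIs. In such sums a low level in CPM stands for few UMIs, and a lack of overlap at that level carries counting error. Metastasis replicate 4 stayed under the minimum of 20 cells, so that differences between tissues were tested over 4 unchallenged lung and 3 metastasis libraries. Its value is given apart and covers 16 cells. By the run number in the library names, replicates 1 and 1-3 were of run 1, replicates 4 of run 2 and replicates 5 and 6 of run 3. The names do not say which step of the work a run stands for. The cells of metastasis replicate 6 were also deposited under a library name marked as cancer cells. No pair of libraries used here shared more than 48 barcodes, and 1 barcode was a gCap in 2 libraries. Doublets were not called, and p-values measure the spread between these libraries.

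Ptprb, the endothelial phosphatase of VE-cadherin and Tie2, was found in 95.1% of gCap, Tmem100 in 84.4%, Gpihbp1 in 77.0%, the incretin receptor Glp1r in 75.4%, Kit in 74.5%, Sema3g in 60.1% and the natriuretic peptide clearance receptor Npr3 in 54.5%. By library, Npr3 was found in 81.0, 90.7, 30.9 and 33.1% of gCap in unchallenged lung replicates 1, 4, 5 and 6. In metastasis replicates 1-3, 4, 5 and 6 it was found in 14.0, 68.8, 12.5 and 21.4%. These shares and the absence of the other 6 genes follow from the rule and are a description only. Of 5324 cells with at least 3 of the required genes, Vwf removed 2176, of which 922 had no other excluded gene, Ptprc (CD45) removed 1496 and Car4 removed 1279. The summed level of 20 pan-endothelial genes was 2981 CPM (the UMIs of a gene scaled to a common total per library) in cells with 2 required genes, just outside the threshold, 7878 CPM in cells with 3, just inside it, 13760.0 CPM with 4 and 23929 CPM with all 7. The cells with 3 required genes were 251 in number, and 369 had all 7.

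The study's name for this endothelium is LEC, so lymphatic genes were looked at first. Prox1 (chr1:190118035-190170714, minus strand, GRCm38), the factor that sets lymphatic identity, had 1 UMI in 1 of 1425 gCap. With each cell thinned to 1000 UMIs it was found in 0 of 1328 cells, which allows a share of up to 0.226%. This limits cells with a UMI, not cells that express the gene, and lymphatic cells were not set apart here to show how often Prox1 is found where it is expressed. The lymphatic chemokine Ccl21a was seen in 1 of the 1425 cells, Mmrn1 in 2, Reln in 2 and Pdpn, podoplanin, in 9. Lyve1 (chr7:110850607-110863239, minus strand), a hyaluronan receptor known from lymphatic vessels and from macrophages, was found in 724 gCap, or 50.8%, and in 38.2% at 1000 UMIs. The share at 1000 UMIs was 57.1% in venous cells, 13.3% in aerocytes and 1.95% in alveolar type 2 cells, which should lack it. Flt4, the VEGF-C receptor, was at 7.45% in gCap, 5.23% in venous cells and 0.195% in alveolar type 2 cells. Lyve1 was thus found in gCap while the defining lymphatic gene Prox1 was at or near 0 at this depth, so the cells are called by their rule here. VE-cadherin (Cdh5) and Pecam1 were found in 72.3% and 68.1% of gCap at the same depth.

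**Figure D1:**
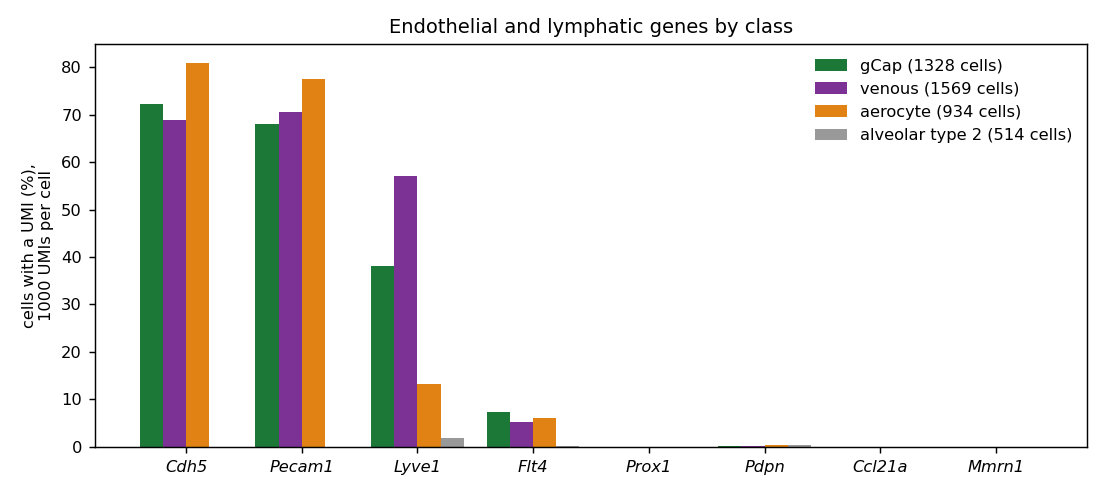
Share of cells with a UMI (percent, each cell thinned to 1000 UMIs) of lymphatic and vascular genes in gCap, venous cells, aerocytes and alveolar type 2 cells. Lyve1 is seen in 38.2% of gCap and 57.1% of venous cells, while Prox1 is at 0 of 1328 gCap.

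The difference of Lyve1 between tissues did not pass the test, and its libraries split by run number. Its level in gCap was 1618, 1459, 375 and 287 CPM in unchallenged lung replicates 1, 4, 5 and 6 and 1101, 232 and 285 CPM in metastasis replicates 1-3, 5 and 6, with 895 CPM in replicate 4. The libraries of runs 1 and 2 were high and those of run 3 low in both tissues, and the tissues overlapped (log2 fold change -0.84, SE 0.77, adjusted p = 0.675 in edgeR's quasi-likelihood test). At 1000 UMIs the share of gCap with Lyve1 was 56.8, 52.6, 26.3 and 18.9% in unchallenged lung and 51.2, 16.4 and 25.0% in the metastasis. A fit with run 3 as a term beside tissue was made after Lyve1 was seen to split this way, so it is no test of that split, and its log2 difference for Lyve1 was -2.06 (SE 0.30). That fit called 68 of 7082 genes (0.96%), of which 3 (0.0424%) were lower in run 3, namely Lyve1, the phosphodiesterase Pde4b and the synaptic scaffold Shank3. The other 65 (0.918%) were higher in run 3, and each of these was above its gCap level in the non-endothelial cells of unchallenged lung, as were 34.2% of all genes tested. They include Sftpb of type 2 cells (log2 difference 6.65) and the ciliated cell genes Sec14l3 (7.36) and Tmem212 (6.88). The part of foreign RNA in the run difference of Lyve1 was not tested.

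**Figure D2:**
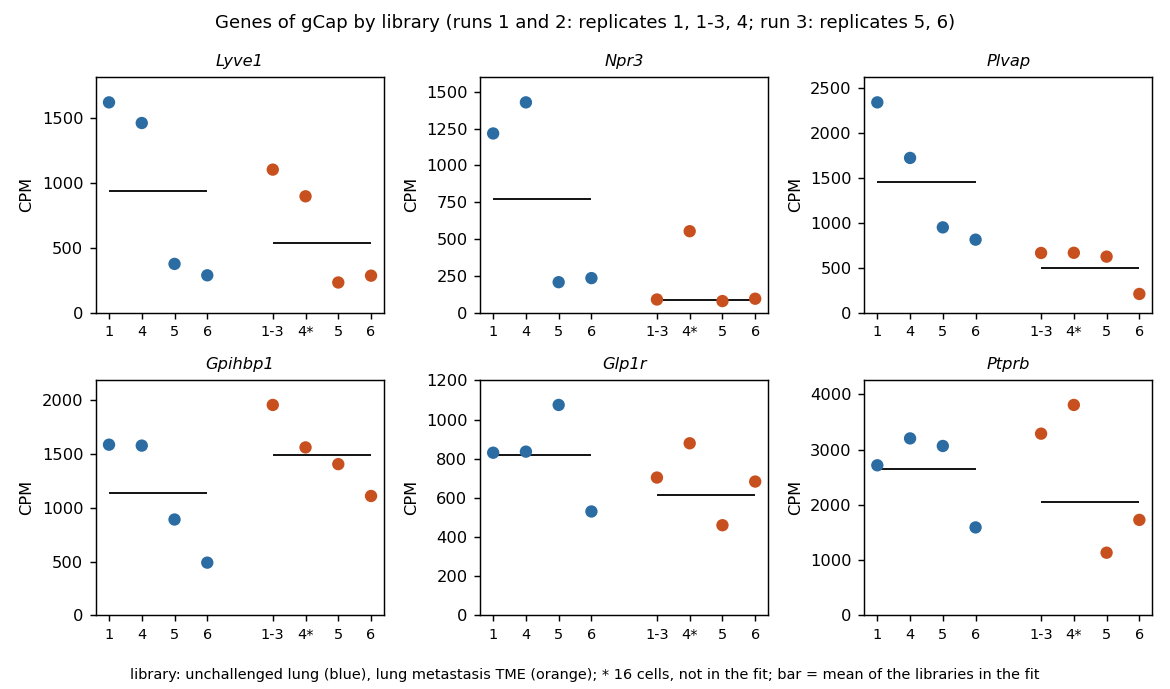
Level of genes in gCap (CPM) per library, with the libraries of each tissue ordered by run number. Lyve1 is at 895 CPM or above in the libraries of runs 1 and 2 and at 375 CPM or below in those of run 3, in both tissues.

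Sema3g, a semaphorin of arterial endothelium, was found in some gCap and not in others. In unchallenged lung replicates 1, 4, 5 and 6, cells with and without a Sema3g UMI numbered 136 and 74, 343 and 109, 201 and 113, and 67 and 81. Efnb2, the arterial ephrin ligand, was at 541, 711, 582 and 597 CPM in the cells with Sema3g and at 330.2, 386, 303 and 319.6 CPM in those without, higher with Sema3g in every library. Cd36, the fatty acid transporter, was at 2771, 2975, 3471 and 2890.0 CPM with and 2019.6, 2367, 2363 and 1621 CPM without Sema3g, again higher in every library. Lyve1 went the same way, with 1697, 1536, 399 and 355 CPM against 1409.9, 1067, 308 and 228 CPM. Gja4, a connexin of arterioles, was 429.6, 219.7, 218 and 147 CPM with and 273, 223, 99.6 and 53.3 CPM without Sema3g, so replicate 4 went slightly the other way. Among other arterial genes the Notch ligand Dll4 was higher with Sema3g in every library, at 191, 144, 184 and 121 CPM against 178, 126, 127 and 45.7 CPM, while Sox17, Hey1 and Bmx went one way in some libraries and the other way in others. The transcription factor Sox17 was 343, 208, 250.1 and 156 CPM with and 362, 230.4, 208 and 107 CPM without Sema3g, the Notch target Hey1 212, 214, 162 and 208 CPM and 279, 164, 167 and 83.7 CPM, and the kinase Bmx 7.24, 11.7, 14.4 and 25.96 CPM and 31.8, 11.1, 9.05 and 0 CPM. The connexin Gja5 of larger arteries stayed at 9.05 CPM or less on both sides, and Dkk2 had no UMI. Genes outside the arterial list were also higher with Sema3g in every library. Ptprb was 2875, 3297, 3367 and 1904 CPM with and 2299, 2728, 2218 and 1317 CPM without Sema3g, and Gpihbp1, Tmem100 and Cd34 went the same way. Kit, Glp1r, Npr3, Plvap, Aplnr and Cxcl12 were not higher with Sema3g in every library. Cells with Sema3g were also deeper, with medians of 3084, 4122 and 2872 UMIs against 1851, 1606 and 1567 in replicates 1, 4 and 5, but not in replicate 6 (1421 and 1434). Sema3g is part of the rule, and these contrasts between cells of 1 library are a description.

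The 10 genes with the largest ratio of gCap to the 981 aerocytes are given as a description. The netrin Ntn1 had the largest median ratio over the 4 unchallenged lung libraries, log2 5.27, with 94.4 to 135 CPM in gCap and 0 to 17.1 CPM in aerocytes. Vegfa, the main endothelial growth factor, had a median log2 ratio of 4.84 with 287 to 974 CPM in gCap and 6.32 to 40.0 CPM in aerocytes, and the vasoconstrictor Edn1 a ratio of 4.93 with 178 to 481 CPM in gCap and 1.26 to 28.6 CPM in aerocytes. The chemokine Cxcl12 (4.79), Plvap (4.69), the TGF-beta docking protein Lrrc32 (4.68) and the C-type lectin receptor Cd93 (4.62) followed, and Tmem221 (5.07), Dnah8 (5.02) and the matrix protein Hmcn1 (4.80) complete the 10 largest. For each of these 10 genes no aerocyte sum reached the lowest gCap sum.

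Of the genes higher in gCap than in the 1610 venous cells, the largest median log2 ratio was 1.67, for the cytokine receptor chain Csf2rb (0.612 to 64.8 CPM in gCap and 0 to 45.2 CPM in venous cells), followed by Tubb2b (1.57), Nck2 (1.48) and Hgf (1.48), the hepatocyte growth factor, with 30.0 to 141 CPM in gCap and 14.3 to 36.8 CPM in venous cells. Vpreb3, Prdm8, Fam78b, Lypd2, Mns1 and Gpx8 had ratios of 1.39 to 1.45. In single libraries the log2 ratio went down to 0 for Lypd2 and -0.596 for Gpx8. The part of RNA of other cells in these ratios was not tested. Of the required genes, Kit was found in 51.0% of gCap and 27.5% of venous cells at 1000 UMIs, and Npr3 in 40.1% and 33.1%. These shares pool libraries. In metastasis replicate 4 Kit was in 40% of gCap and 57.4% of venous cells, and in every other library it was higher in gCap. Npr3 was higher in gCap in each unchallenged lung library, narrowly in replicate 4 (70.6 and 68.8%), and lower in each metastasis library. The part of capillary cells with a Vwf UMI in the venous class was not tested, here or in the interaction below. The required genes were thus found in venous cells as well, Gpihbp1 in 49.6% of them against 61.6% of gCap. Types were cut from expression, so these contrasts have no test.

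RNA of other cells was present in the gCap sums and moved with both tissue and library. The summed level of 8 melanoma genes was 5.25, 1.22, 2.37 and 0 CPM in unchallenged lung and 486, 11300.0 and 2496 CPM in metastasis replicates 1-3, 5 and 6, with 439.5 CPM in replicate 4. That is 2.36, 54.8 and 12.1% of the 20615 CPM in sorted MM cells for replicates 1-3, 5 and 6. At 1000 UMIs, Pmel, a melanosome protein, was found in 22.8% of gCap of the metastasis and in 21.5% of venous cells, 22.2% of aerocytes and 19.7% of alveolar type 2 cells. It was thus spread alike over cell types that do not make melanin. Of the 8 melanoma genes, 3 had no UMI in any unchallenged lung library.

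Lung epithelial and leukocyte genes varied as widely within a tissue. The 4 club cell genes summed to 343, 17.7, 5729.9 and 16755 CPM in unchallenged lung and 742, 6152 and 4859.6 CPM in the metastasis, the 6 type 2 genes to 129, 9.79, 3863 and 2336 CPM and 25.6, 767 and 332 CPM. The 7 macrophage genes summed to 201, 133, 606 and 4227 CPM and 294, 114 and 218 CPM. The 20 pan-endothelial genes summed to 23517, 23462, 16969 and 9479 CPM in unchallenged lung and 15997, 11186 and 11181 CPM in the metastasis. Unchallenged lung replicate 6 was thus highest in macrophage and club genes and lowest in endothelial genes. The 6 type 1 cell genes, Hopx among them, varied less, with sums of 631, 778, 845 and 652 CPM and 525, 357 and 626 CPM. Non-endothelial cells had less of them than gCap, at 259 CPM in unchallenged lung and 103 CPM in the metastasis. The mural genes summed to 17.5, 9.79, 18.9 and 24.3 CPM and 0, 136 and 19.0 CPM. Ciliated genes spanned 19.0 to 1717 CPM, neutrophil genes 0 to 3049 CPM, B cell genes 6.996 to 2129.8 CPM and fibroblast genes up to 740.3 CPM in the metastasis, while T cell, natural killer, mesothelial, platelet and erythroid sums had group means of at most 59.7 CPM. Their part in the differences between tissues was not tested.

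**Figure D3:**
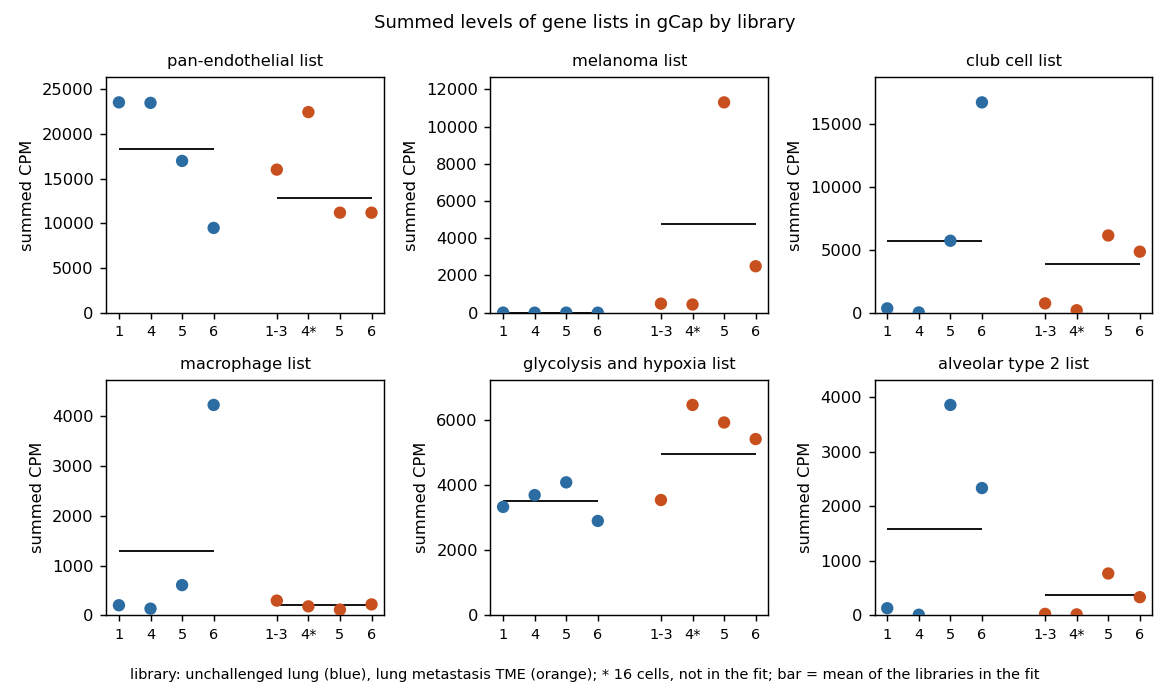
Summed level (CPM) in the gCap of each library of marker lists of other cell types, and of the pan-endothelial and the glycolysis and hypoxia lists. Melanoma genes are at 5.25 CPM or less in unchallenged lung and between 486 and 11300.0 CPM in the tested metastasis libraries.

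Between tissues, gCap of the metastasis differed from gCap of unchallenged lung in 44 of 7082 genes (0.621%). Of these 40 were higher (0.565%) and 4 lower (0.0565%), with a median log2 fold change of -0.02 over all genes tested. An unadjusted p under 0.05 was reached by 1032 genes, and the libraries of both tissues did not overlap for 872 (12.3%). Of the 40 higher genes, 32 were more abundant in sorted MM cells than in the gCap of the metastasis, as were 2410 (34%) of the 7082 genes tested. With the melanoma profile subtracted, 4858 genes and 25 of the 44 were left to test, and 7 of these 25 were called, Amd1, Ankrd37, Cdk19, Depp1, Igfbp3, Ntrk2 and Tspan4. With other-cell genes removed before scaling, 3964 genes and 9 of the 44 were left, and 8 of these 9 were called, Amd1, Ankrd37, Cdk19, Depp1, Hopx, Ntrk2, Smad6 and Znrd2, so that 5 genes were called in all 3 fits. Both fits take genes out by their level in other cells, so a gene that drops out of them was not tested, and list medians after subtraction cover the genes left. Leaving out cells with a UMI of Epcam, Cdh1, Pdgfrb, Msln or Dct kept 22 of 43, 0 of 200 and 2 of 42 gCap in metastasis replicates 1-3, 5 and 6. In unchallenged lung replicates 1, 4, 5 and 6 it kept 208, 449, 282 and 117. That fit had 1 metastasis library with at least 20 cells and so holds no spread between metastases. With the run number as a term the fit called 50 genes, 43 higher and 7 lower, 36 of the 44 among them. With the replicate number as a block it called 78, 57 higher and 21 lower, 39 of the 44 among them. Within run 3, with 2 libraries a side, 164 genes were called, 40 of the 44 among them. Without metastasis replicate 5 the fit called 4 genes and without replicate 6 it called 8, of which 3 and 7 were among the 44.

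Igfbp3 (chr11:7206086-7213923, minus strand), a secreted binding protein of insulin-like growth factors, was nearly absent from gCap of unchallenged lung. It was at 0, 0.612, 0 and 8.10 CPM in the unchallenged lung replicates 1, 4, 5 and 6 and at 51.2, 138 and 123 CPM in metastasis replicates 1-3, 5 and 6, and replicate 4 had 114 CPM. No library of one tissue reached the other, and sorted MM cells had 1.34 CPM. The fitted log2 fold change was 6.69 (SE 0.69, adjusted p = 0.000381). Since the unchallenged lung sums held 3 UMIs in all, the pooled ratio of 137 has an exact 95% interval of 45.4 to 681, which covers counting error only. At 1000 UMIs, 0.0959% of unchallenged lung and 3.86% of metastasis gCap had a UMI, against 10.8% of venous and 0 of 173 alveolar type 2 cells of the metastasis, which allows up to 1.73%.

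Depp1 (chr6:116650609-116652794, plus strand), a FOXO target linked to autophagy, was 5.25, 4.89, 8.29 and 12.1 CPM in unchallenged lung and 192, 65.7 and 38.0 CPM in the metastasis, and its libraries did not overlap (log2 fold change 3.73, SE 0.54, adjusted p = 0.00576). Replicate 4, with 16.3 CPM, lay just above the unchallenged lung. Ankrd37 (chr8:45996902-46005707, minus strand), an ankyrin repeat protein induced by hypoxia, was 6.996, 1.22, 4.74 and 28.3 CPM and 141, 74.5 and 114 CPM with 228 CPM in replicate 4 (log2 fold change 4.04, SE 0.68, adjusted p = 0.0143). Both were higher in each metastasis library than in any of unchallenged lung, and sorted MM cells had 0.0131 CPM of Depp1 and 15.98 CPM of Ankrd37. The Depp1 levels of metastasis replicates 6 and 4 stand for few UMIs, of sums of 105359 and 61431. The resistin-like cytokine Retnla was 1.75, 1.22, 8.29 and 24.3 CPM and 51.2, 105 and 189.8 CPM, with 0 CPM in replicate 4 (log2 fold change 4.40, SE 0.74, adjusted p = 0.0211), and had 0.183 CPM in sorted MM cells and 213 CPM in the non-endothelial cells of the metastasis. With the melanoma profile subtracted its adjusted p was 0.0603, and it was not among the genes left when other-cell genes were removed.

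Amd1, Ntrk2 and Cdk19 are named here after their values were seen, since they were called in all 3 fits. Amd1 (chr10:40287458-40302186, minus strand), a rate-setting enzyme of polyamine synthesis, was 19.2, 20.2, 21.3 and 24.3 CPM in unchallenged lung, a narrow range, and 102.4, 112 and 218 CPM in the metastasis, with 179 CPM in replicate 4. Its log2 fold change was 2.80 (SE 0.35, adjusted p = 0.00156), and sorted MM cells had 60.8 CPM. It was called in 22 of its 23 alternatives, the exception being the one without cells that carry other markers, and 1 of the 22, with a minimum of 50 cells, had 1 metastasis library, replicate 5. Ntrk2 (chr13:58806569-59133970, plus strand), the receptor TrkB of brain-derived neurotrophic factor, was 17.5, 14.7, 23.7 and 12.1 CPM and 51.2, 94.2 and 294 CPM, with 765 CPM in replicate 4 (log2 fold change 3.07, SE 0.48, adjusted p = 0.00808). It was practically absent from sorted MM cells (0.0917 CPM), and at 1000 UMIs it was found in 1.73% of unchallenged lung and 12.6% of metastasis gCap. Cdk19 (chr10:40339564-40483818, plus strand), a kinase of the Mediator complex, was 52.5, 49.6, 85.2 and 56.7 CPM and 154, 145 and 247 CPM, with 342 CPM in replicate 4 (log2 fold change 1.59, SE 0.32, adjusted p = 0.0340).

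These calls leaned on single libraries. Without metastasis replicate 5, the adjusted p was 0.162 for Igfbp3, 0.115 for Depp1, 0.0968 for Ntrk2, 0.268 for Ankrd37, 0.338 for Retnla and 0.166 for Cdk19. Amd1 was still called, at 0.0326. Without metastasis replicate 6 it was 0.0759 for Ntrk2, 0.158 for Ankrd37, 0.171 for Retnla and 0.171 for Cdk19. Ankrd37 was also lost without metastasis replicate 1-3 (0.0664), unchallenged lung replicate 1 (0.0585) and unchallenged lung replicate 5 (0.0575), Cdk19 without unchallenged lung replicates 1, 4 and 5 (0.140, 0.145 and 0.0513), and Retnla without unchallenged lung replicates 1 and 5 (0.0768 and 0.0631). Within run 3 the adjusted p was 0.0515 for Ankrd37 and 0.116 for Cdk19. Each kept a positive log2 fold change in these fits.

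Others among the largest increases were genes at 141 to 1151 CPM in sorted MM cells. Cpe, carboxypeptidase E, was 0, 0, 0 and 4.05 CPM in unchallenged lung and 51.2, 535 and 342 CPM in the metastasis against 948 CPM in sorted MM cells (log2 fold change 9.36, adjusted p = 0.00808). The synaptic vesicle protein Syngr1 was 0, 0, 1.18 and 0 CPM and 38.4, 552 and 142 CPM against 1016 CPM in MM cells, and the protease inhibitor Timp1 1.75, 0.612, 2.37 and 0 CPM and 38.4, 96.4 and 123 CPM against 141 CPM. Lgi4 and Car6, both secreted proteins, had no UMI in unchallenged lung and 25.6, 129 and 104 CPM and 25.6, 147 and 38.0 CPM in the metastasis. Sorted MM cells had 313 CPM of Lgi4 and 1151 CPM of Car6. Levels of 25.6 to 51.2 CPM in metastasis replicate 1-3 stand for few UMIs, of a sum of 78139. Cd109, a surface co-receptor of TGF-beta, was 0, 0, 0 and 4.05 CPM and 38.4, 85.5 and 38.0 CPM against 172 CPM in MM cells (log2 fold change 6.93, adjusted p = 0.00142). None of these 6 was left in the test when the melanoma profile was subtracted, so that fit gives no value for them. Without metastasis replicate 6 the adjusted p was 0.0759 for Cpe, 0.0759 for Syngr1, 0.0780 for Lgi4 and 0.133 for Car6, and without replicate 5 it was 0.0968 for Syngr1 and 0.115 for Timp1. Without unchallenged lung replicate 6 it was 0.0558 for Cpe, and without replicates 1, 4 and 5 in turn 0.0938, 0.108 and 0.384 for Syngr1. Cd109 was called in the 6 fits that left out 1 library and tested it, and without metastasis replicate 5 it was not among the genes tested. Lgi4 and Car6 were tested in 3 such fits each.

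Sparc, a collagen-binding matricellular protein, was 652, 471, 298 and 182 CPM in unchallenged lung and 1728, 1957 and 1357 CPM in the metastasis, without overlap (log2 fold change 2.12, SE 0.39, adjusted p = 0.0172). Its relative Sparcl1, named after its values were seen, was 215, 85.6, 50.9 and 48.6 CPM and 1817, 682 and 873 CPM (log2 fold change 3.47, SE 0.50, adjusted p = 0.00808). Replicate 4 had 407 CPM of Sparc, inside the unchallenged lung range, and 602 CPM of Sparcl1, above it. With that replicate in the fit the adjusted p of Sparc was 0.119, and with the melanoma profile subtracted it was 0.0603. Without metastasis replicates 5 and 6 and without unchallenged lung replicate 5, each in turn, it was 0.185, 0.0942 and 0.0796. For Sparcl1 it was 0.370 with the melanoma profile subtracted, 0.148 without metastasis replicate 5 and 0.0696 without replicate 6. In the fits that left 1 metastasis library it was 0.110 with a minimum of 50 cells and 0.769 without cells carrying other markers.

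The 4 lower genes had 0.419 to 27.0 CPM in sorted MM cells. Smad6 (chr9:63953076-64022059, minus strand), the inhibitory SMAD that BMP signaling induces in endothelium, was 460.0, 630.1, 339.8 and 308 CPM in unchallenged lung and 166, 76.7 and 66.4 CPM in the metastasis, without overlap (log2 fold change -2.12, SE 0.40, adjusted p = 0.0182). Hopx (chr5:77086988-77115121, minus strand), a homeodomain cofactor also used as a type 1 cell marker and singled out after its values were seen, was 180.1, 192, 199 and 178 CPM and 25.6, 37.3 and 66.4 CPM (log2 fold change -2.07, SE 0.35, adjusted p = 0.0127). In replicate 4 both lay in the unchallenged lung range or above, at 700.0 and 179 CPM, and with its 16 cells in the fit the adjusted p was 0.567 and 0.199. At 1000 UMIs, 33.3% of unchallenged lung and 11.6% of metastasis gCap had Smad6, and 16.4% and 4.21% had Hopx. These shares pool cells, and 189 of the 285 metastasis gCap were of replicate 5. The part of a lower endothelial share of UMIs in these shares was not tested. Neither Smad6 nor Hopx was called with the melanoma profile subtracted (adjusted p = 0.152 and 0.169).

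Adenosine kinase (Adk) was 94.4, 93.6, 109 and 93.1 CPM in unchallenged lung and 38.4, 17.5 and 28.5 CPM in the metastasis, with 32.6 CPM in replicate 4 (log2 fold change -1.95, SE 0.39, adjusted p = 0.0286). The noncoding RNA Gm43848 (chr3:105725901-105727147, minus strand) was 24.5, 55.7, 58.0 and 40.5 CPM and 0, 4.38 and 0 CPM, and replicate 4, at 48.8 CPM, lay in the unchallenged lung range (log2 fold change -3.71, SE 0.75, adjusted p = 0.0314). None of these 4 was called without metastasis replicate 5, with adjusted p of 0.223 for Smad6, 0.156 for Hopx, 0.282 for Adk and 0.282 for Gm43848. Without replicate 6 the values were 0.160, 0.0506, 0.105 and 0.143. Leaving out unchallenged lung replicates 1, 4 and 5 gave 0.0798, 0.0850 and 0.102 for Adk, and leaving out replicates 1 and 4 gave 0.0585 and 0.0652 for Smad6. Fewer cells with a gene and less RNA of it per cell cannot be told apart in these sums. The levels of Hopx and Adk in metastasis replicate 1-3 stand for few UMIs, of a sum of 78139.

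**Figure D4:**
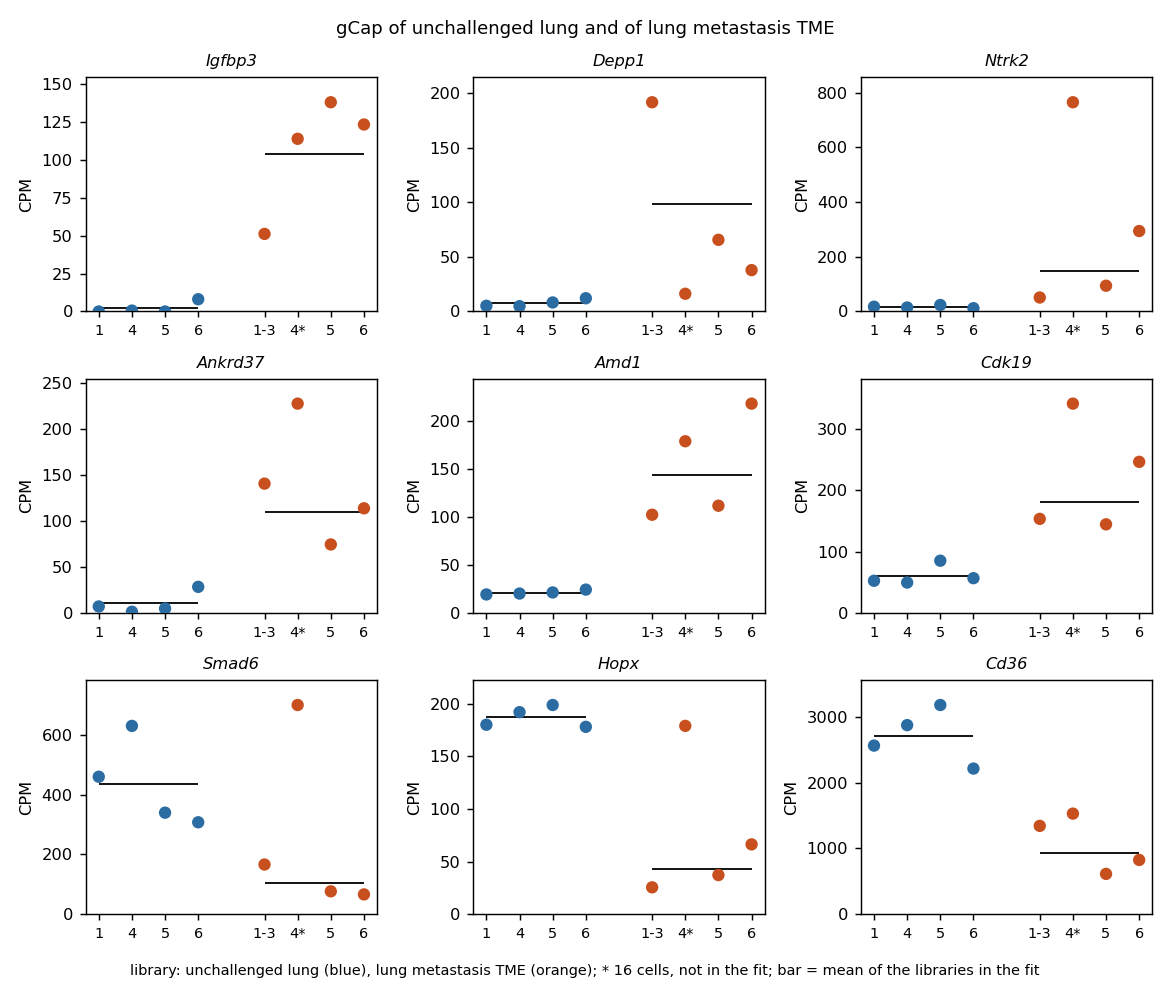
Level (CPM) in gCap per library of genes called between unchallenged lung and lung metastasis TME, and of Cd36, which was not called. There is 1 point per library, and replicate 4 of the metastasis (16 cells, outside the fit) is marked. Amd1 is between 19.2 and 24.3 CPM in the 4 unchallenged lung libraries and between 102.4 and 218 CPM in the tested metastasis libraries.

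Of the 15 tested genes of glycolysis and hypoxia, 4 were called higher, Pgk1, Eno1, Pkm and Ankrd37, and none lower, where 0.565% of all genes tested were called higher. The list had a median log2 fold change of 1.80, beside -0.02 over all genes, and 14 of 15 were positive. Its summed level was 3321, 3683, 4074 and 2891 CPM in unchallenged lung and 3532, 5909 and 5401 CPM in the metastasis, so replicate 1-3 lay inside the unchallenged lung range. The glycolytic enzyme Pgk1 was 52.5, 48.9, 46.2 and 81.0 CPM and 128, 495 and 332 CPM (log2 fold change 2.66, adjusted p = 0.00848), pyruvate kinase Pkm 115, 111, 69.8 and 126 CPM and 179, 864 and 617 CPM. Sorted MM cells summed to 7444 CPM for the list, and with the melanoma profile subtracted its median was 0.82 and of the 4 only Ankrd37 kept its call. Without metastasis replicates 5 and 6 in turn, the adjusted p was 0.158 and 0.0780 for Pgk1, 0.290 and 0.147 for Eno1 and 0.273 and 0.143 for Pkm.

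Fatty acid handling is a known trait of lung capillary cells, and of its 9 tested genes none was called, beside 0.621% of all genes tested. The log2 fold change was positive for 7 of the 9, with a median of 0.36, and 0.50 with the melanoma profile subtracted. The summed level of the list went the other way, at 3573, 3866, 4056 and 3555 CPM in unchallenged lung. In metastasis replicates 1-3, 5 and 6 it was 2879, 1972 and 2259 CPM, with 4672 CPM in replicate 4. Cd36 and Lpl were 2 members with a lower level in the metastasis. Cd36, also singled out after its values were seen, was 2564, 2875, 3181 and 2215 CPM in unchallenged lung and 1344, 614 and 826 CPM in the metastasis, with 1530.2 CPM in replicate 4. Its libraries did not overlap, but the test fell short of the threshold (log2 fold change -1.55, SE 0.34, adjusted p = 0.0545), and it was called under 6 of the alternatives. At 1000 UMIs, Cd36 was found in 84.1% of gCap in unchallenged lung and 54.0% in the metastasis. It was also lower in the metastasis in venous cells (76.4% and 47.3%), aerocytes (81.8% and 69.8%) and alveolar type 2 cells (50.1% and 25.4%). These shares pool cells, and 189 of the 285 metastasis gCap were of replicate 5. Cdh5 at this depth was found in 77.1, 83.2, 75.8 and 52.8% of gCap and in 70.7, 58.7 and 32.5%. Pecam1 was found in 71.4, 74.5, 76.5 and 46.5% and in 63.4, 54.5 and 62.5%. The part of a lower endothelial share of UMIs in the Cd36 shares was not tested. Lipoprotein lipase (Lpl) was 577, 575, 384 and 705 CPM and 294, 178 and 389 CPM.

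Of 18 genes of VEGF signaling and angiogenesis 3 were called higher, Igfbp3, Sparc and the laminin chain Lama4 (1.75, 3.67, 11.8 and 4.05 CPM and 25.6, 67.9 and 38.0 CPM, adjusted p = 0.0182, and 0.733 without metastasis replicate 5), and the median was -0.09, or 0.06 with the melanoma profile subtracted. Over all genes tested 0.565% were called higher. Of 14 genes of BMP and TGF-beta signaling, which keeps lung capillaries quiescent, Smad6 was called lower (0.0565% over all genes tested) and none higher, and 2 had a positive log2 fold change. Their median was -0.71, and -0.25 with the melanoma profile subtracted. The Id genes are known targets of this pathway, and Id1 was 554, 559.8, 262 and 97.2 CPM in unchallenged lung and 205, 296 and 275 CPM in the metastasis (adjusted p = 0.737), where the tissues overlapped.

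Of 12 further gCap markers none was called, beside 0.621% of all genes tested. They had a median of -0.62 with 1 positive, among them Cd93 at 1534, 1618, 1638 and 1081 CPM in unchallenged lung and 998, 819.7 and 769 CPM in the metastasis (adjusted p = 0.276) and the semaphorin Sema3c at 1619.6, 1591, 1979 and 1199 CPM and 678, 524 and 1405 CPM. The 20 pan-endothelial genes had a median of -0.34, which became 0.10 with the melanoma profile subtracted, and the calcitonin receptor partner Ramp2 was 5627, 4003, 1995 and 1154 CPM and 2982, 2766 and 1452 CPM. Of the 6 tested aerocyte genes, with a median of -0.70, none was called, and of the 6 arterial ones none either (0.05). Of the 6 tested venous genes only Cpe was called. With the melanoma profile subtracted the median was -0.30 for the gCap markers, -0.29 for the aerocyte, 0.54 for the arterial and 0.32 for the venous genes. The VEGF receptor Kdr was 397, 371, 564 and 445 CPM in unchallenged lung and 282, 208 and 161 CPM in the metastasis, without overlap and short of the threshold (adjusted p = 0.177). Calls depended on size. In counts simulated from these libraries the fit recovered 63.6% of genes changed by 2 on the log2 scale and 5.49% of those changed by 1. Smaller differences were thus mostly not detectable with these libraries.

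In the Notch, Wnt and norrin, shear and vasoactive, adhesion and inflammation, immediate early and cell cycle lists no gene was called, where 0.621% of all genes tested were. Notch genes (11 tested) had a median of -0.19, with the receptor Notch1 at 243, 326, 339 and 211 CPM and 333, 76.7 and 171 CPM. Wnt and norrin genes (9 tested) had a median of -0.31, with the capillary transcription factor Foxf1 at 769.6, 1049.8, 381 and 154 CPM and 333, 160.0 and 171 CPM. Shear and vasoactive genes (14 tested) had a median of -0.49, and thrombomodulin (Thbd) was 1681, 1242, 1113 and 891 CPM and 1062, 373 and 731 CPM (adjusted p = 0.329). Adhesion and inflammation genes (6 tested) had a median of -0.56. Sele, the selectin of activated venules, and Csf3 had no UMI in any library of the test. Immediate early and heat shock genes (17 tested, median -0.53), known to respond to tissue dissociation, and cell cycle genes (5 tested, median 0.49) held no called gene either. With the melanoma profile subtracted the median was 0.20 for Notch, -0.04 for Wnt and norrin, -0.23 for shear and vasoactive, -0.12 for adhesion and inflammation, -0.58 for immediate early and heat shock and 0.48 for cell cycle genes.

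gCap carried MHC class II, with Cd74, the invariant chain, at 4771, 523, 1702 and 1474 CPM in unchallenged lung and 2931, 1766 and 1908 CPM in the metastasis. At 1000 UMIs Cd74 was found in 56.2% of gCap, 51.9% of venous cells and 14.6% of aerocytes, and also in 76.3% of alveolar type 2 cells, which express it. The class II chain H2-Ab1 was in 37.1% of gCap, 6.75% of aerocytes and 28.6% of type 2 cells. No gene of the antigen presentation and interferon lists was called, beside 0.621% of all genes tested. The 7 class II genes had a median of -0.07, the 13 class I genes -0.47 and the 19 interferon genes -0.39. With the melanoma profile subtracted these medians were 0.33, -0.01 and 0.10. The interferon-induced membrane protein Ifitm3 was 3031, 2488, 1486 and 652 CPM and 2163, 2266 and 1035 CPM (adjusted p = 0.999).

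Whether the tissue difference of gCap differed from that of venous cells of the same libraries was tested as an interaction. It called 21 of 8540 genes (0.246%), 15 more positive in gCap (0.176%) and 6 more negative (0.0703%). Cpe had an interaction of 7.86 (SE 0.56, adjusted p = 1.24e-12). Venous cells of unchallenged lung already carried it, at 125, 31.4, 239 and 121 CPM, where gCap had 0, 0, 0 and 4.05 CPM. In metastasis replicates 1-3, 5 and 6 Cpe was 51.2, 535 and 342 CPM in gCap and 0, 421 and 512 CPM in venous cells. The gelatinase Mmp2, at 233 CPM in sorted MM cells, had an interaction of 5.24 (SE 0.65, adjusted p = 2.71e-08). It was at 0 to 4.05 CPM in gCap of unchallenged lung and 17.7 to 37.3 CPM in venous cells there, and in the metastasis at 12.8, 127 and 75.9 CPM in gCap and 0, 99.1 and 94.0 CPM in venous cells. For both genes the 2 types were near each other in metastasis replicates 5 and 6, gCap of unchallenged lung was at or near 0, and the 22 venous cells of metastasis replicate 1-3 held no UMI. Arrdc3, an arrestin-domain protein, had an interaction of -2.75 (SE 0.46, adjusted p = 9.08e-05), with 41.6 to 76.9 CPM in gCap of unchallenged lung, 64.0, 8.77 and 38.0 CPM in gCap of the metastasis and 114, 80.1 and 115 CPM in venous cells of the metastasis. Inhbb, the activin B chain, was 25.6, 19.7 and 19.0 CPM in gCap of the metastasis and 57.1, 97.6 and 120.1 CPM in venous cells, with an interaction of -2.46 (SE 0.54, adjusted p = 0.00972). By DESeq2 its adjusted p was 0.498.

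Of the 44 genes called in gCap, 1, Cpe, was called in this interaction. Igfbp3 was 0, 1.14, 0 and 16.7 CPM in venous cells of unchallenged lung and 114, 349.7 and 491 CPM in those of the metastasis, with an interaction of -0.68 (SE 1.26, adjusted p = 0.966). Amd1 was 14.7, 14.3, 18.1 and 11.9 CPM and 76.2, 59.7 and 136 CPM in venous cells (interaction 0.34, SE 0.38, adjusted p = 0.933). For these genes a difference between both types was not detectable, within standard errors that would hide a moderate one.

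The same test against aerocytes had 1 metastasis library with at least 20 aerocytes, replicate 5, which is assumed to vary like the unchallenged lung libraries. It called 35 of 10802 genes (0.324%), 20 upward in gCap (0.185%) and 15 downward (0.139%), while DESeq2 called 0 (195 at an unadjusted p under 0.05). Apln, the apelin ligand that marks aerocytes, had an interaction of 5.51, called by edgeR and not by DESeq2 (adjusted p = 0.215), and with 1 metastasis library neither holds a spread between metastases. It was 1.75, 0.612, 3.55 and 8.10 CPM in gCap of unchallenged lung and 57.0 CPM in gCap of metastasis replicate 5, against 476, 421, 333 and 229 CPM and 216 CPM in aerocytes. Of the 44 genes called in gCap, 2 were called here, Sparc and Nme1, by edgeR and not by DESeq2. In aerocytes Sparc was 173, 94.2, 38.7 and 68.6 CPM in unchallenged lung and 1952 CPM in metastasis replicate 5.

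The share of gCap among gCap, aerocytes and venous cells was compared with each cell thinned to 1000 UMIs before the rules were applied. Thinning also takes UMIs of the excluded genes, so gCap here include cells that the rule leaves out at full depth. Unchallenged lung replicate 4 went from 452 to 837 gCap and from 396 to 276 venous cells, and metastasis replicate 4 from 16 to 44 gCap. The share was 56.6, 67.3, 40.8 and 27.4% in unchallenged lung replicates 1, 4, 5 and 6 and 78.6, 47.8, 45.8 and 58.4% in metastasis replicates 1-3, 4, 5 and 6. Exact 95% binomial intervals ran from 37.8 to 43.8% for unchallenged lung replicate 5 and from 65.6 to 88.4% for metastasis replicate 1-3, the latter with 56 endothelial cells. The groups overlapped, and the mean of 57.7 ± 15.0% (SD, n = 4) in the metastasis and 48.0 ± 17.5% (SD, n = 4) in unchallenged lung differed by 9.62 points, less than the spread between libraries (two-sided exact permutation test, p = 0.429, smallest possible 0.0286). Within run 1 the share was 56.6% in unchallenged lung and 78.6% in the metastasis, within run 2 67.3% and 47.8%, and within run 3 34.1% and 52.1%. The part of the sort in these shares was not tested, and without thinning they were 24.1 to 46.2% and 20.5 to 60.6%.

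**Figure D5:**
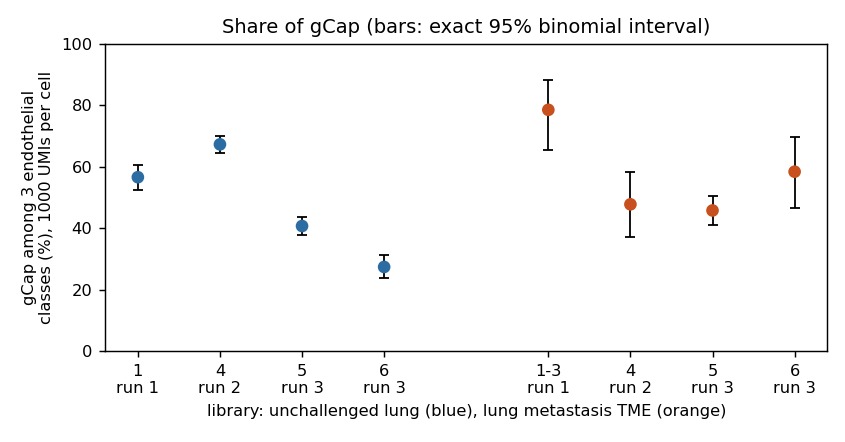
Share of gCap among the cells of the 3 endothelial classes (percent) per library at 1000 UMIs per cell, with exact 95% binomial intervals and 1 point per library. The unchallenged lung libraries lie between 27.4 and 67.3% and the metastasis libraries between 45.8 and 78.6%.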

How the data were processed

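Single-cell 3' data of 4 unchallenged lung and 4 lung metastasis TME libraries were used, with sorted MM cells as the melanoma profile. The deposited counts are UMIs per gene and cell, which the authors made with Cell Ranger 6.1.1 on GRCm38 and Seurat 3.2.2, leaving out cells by quantiles of genes and of mitochondrial and ribosomal share. The percent of mitochondrial UMIs per cell that the authors deposited entered no test. The counts carry no normalization. Fewer barcodes are in it than the study states, and deposited log-normalized values were not used.

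Repeated barcodes were counted once. UMIs of gCap were summed in each library that had at least 20 of them. The sums entered edgeR 4.0.16 with filterByExpr, TMM scaling and the robust quasi-likelihood F test, p-values were adjusted by Benjamini-Hochberg across every gene tested, and 0.05 was the threshold. DESeq2 1.42.0 served as an alternative. Aerocytes had Car4 and Ednrb and an endothelial gene, venous cells Vwf or Slc6a2 and at least 2 endothelial genes, alveolar type 2 cells at least 3 of their genes, each without genes of other types. Interactions kept the library as a block. CPM are relative to the gCap UMIs of a library, and ratios between types used a pseudocount of 1 CPM. For shares of cells each cell was thinned to 1000 UMIs. A share of 0 allows 3 counts over the cells measured. Named genes are the 10 with the largest change in each direction among called genes whose libraries did not overlap and whose mean reached 20 CPM, markers of other cells left out, up to 4 called genes of each list or otherwise its 2 most abundant, the 5 largest in each direction of an interaction, and the 10 largest ratios to each other type. Exceptions are marked in the text. Gene positions are from GENCODE on GRCm38. The fit was tested on simulated counts. Members, gene lists and tests were chosen with earlier results of these data known. The alternatives with the melanoma profile subtracted, with other-cell genes removed before scaling, within run 3, and the test of run 3, were chosen after seeing the data.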

Additional observations from a re-analysis of the deposited data

Results flagged for a closer look

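Among 76 groups of 4 libraries, 10 held a library that lay far from the other 3, where chance gives about 1 in 20. In gCap of unchallenged lung replicate 6 these were the summed levels of macrophage (4227 CPM), neutrophil (3049 CPM), B cell (2129.8 CPM), fibroblast (292 CPM), mesothelial (24.3 CPM), platelet (24.3 CPM) and erythroid (12.1 CPM) genes, each the highest of the 4, and Hmgb2 (279 CPM), a chromatin protein of cycling cells. Adk stood out in replicate 5 (109 CPM) and Icam1, a leukocyte adhesion molecule, in replicate 1 (147 CPM), both by narrow absolute gaps. The erythroid gap was narrow as well, with 8.74, 8.56 and 8.29 CPM in replicates 1, 4 and 5. The flags of replicate 6 are not independent of each other, which the rate of 1 in 20 takes them to be.

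The tissue difference of gCap differed from that of venous cells by the interaction term for Cpe (7.86 on the log2 scale), the retinol-binding Rbp7 (6.93), the membrane protease Mmp16 (6.43), the Wnt antagonist Sfrp1 (6.29) and Mmp2 (5.24), each more positive in gCap. It was more negative in gCap for the lysozyme Lyz1 (-11.33), the protease Napsa of type 2 cells (-4.90), Arrdc3 (-2.75), Inhbb (-2.46) and Pde4d (-2.13). Lyz1 and Napsa rest on metastasis replicate 1-3, whose 22 venous cells held 2019 and 381 CPM. In gCap, Rbp7 and Sfrp1 were found in metastasis replicate 5 alone among the tested libraries, at 70.1 and 8.77 CPM. Mmp16 was at 0 CPM in gCap of unchallenged lung and at 12.8, 24.1 and 0 CPM in metastasis replicates 1-3, 5 and 6. Sorted MM cells had 36.8 CPM of Mmp16 and 233 CPM of Mmp2. Cpe and Mmp2 were called in each of 7 fits that left out 1 library, Arrdc3 in 6, Rbp7, Mmp16, Lyz1, Napsa and Inhbb in 5, Sfrp1 and Pde4d in 3. By DESeq2, Rbp7, Sfrp1, Lyz1 and Napsa had an adjusted p that rounds to 1.00, and Mmp16 (0.0700), Inhbb and Pde4d (both 0.498) were not called either.

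Against aerocytes, with 1 metastasis library, the difference was more positive in gCap for Fam174b (5.51), Apln (5.51), the phosphatase Dusp4 (4.78), Aldh7a1 (4.78) and Scrn1 (4.76), and more negative for Lyz1 (-9.37), the chaperone Dnaja4 (-7.80), 3300002A11Rik (-5.35), Trp53i11 (-4.55) and the surfactant protein Sftpd (-4.12). Fam174b, Dusp4, Aldh7a1 and Scrn1 had 54.8, 66.1, 39.3 and 39.8 CPM in sorted MM cells. Fam174b and Apln were called in each of the 4 fits that left out 1 unchallenged lung library. The part of melanoma and epithelial RNA in these interactions was not tested.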

How the results depend on the processing

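The 44 genes called between tissues (40 higher, 4 lower) became 148 with DESeq2, 26 with at least 2 of the 7 genes and 67 with at least 4, 26 with a minimum of 10 cells, 194 with no filter and 0 with cells carrying other markers left out (527 at an unadjusted p under 0.05). A minimum of 50 cells gave 318 and left 1 metastasis library, replicate 5, which is assumed to vary like the unchallenged lung libraries, as the 1 library of the fit without cells carrying other markers is. Leaving out genes more abundant in sorted MM cells than in gCap gave 12. The alternatives added after seeing the data gave 9 with the melanoma share subtracted, 11 with other-cell genes removed before scaling and 164 within run 3. The counts with 1 library left out ranged from 4, without metastasis replicate 5, to 143, without metastasis replicate 1-3. They were 8 without metastasis replicate 6, and 23, 27, 19 and 74 without unchallenged lung replicates 1, 4, 5 and 6. With the replicate block the count was 78 (57 higher, 21 lower), of which 39 were among the 44. Same-numbered libraries of both tissues share a run number and no mouse, replicates 5 and 6 being of the same run, and their deviations from the group means correlated at 0.0496, -0.143 and 0.0645. With the run as a term the count was 50.

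The venous interaction called 21 genes, 6 with DESeq2, and 8 (without metastasis replicate 5) to 45 (without metastasis replicate 6) with 1 library left out, and 35 without unchallenged lung replicate 6. The aerocyte interaction called 35, 0 with DESeq2 (195 at an unadjusted p under 0.05), 12 where the mean had to reach 20 CPM, and 18 (without unchallenged lung replicate 1) to 127 (without replicate 6). The share difference of 9.62 points became -0.412 at 2000 UMIs (exact permutation p = 0.943) and ranged from 2.65 to 16.05 with 1 library left out. With the replicate block its exact p was 0.375, where 0.125 is the smallest possible. Over 25 named genes and 23 alternatives, 363 values kept direction and side of the threshold, 125 lost the call, 6 gained it (all Cd36) and 0 reversed. The causes were not tested. The 3 metastasis libraries of the fit held 78139 to 456282 UMIs.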

Other observations

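Amd1 and Cdk19, both among the 5 genes called in all 3 fits, are neighbors on chromosome 10 (chr10:40287458-40302186, minus strand, and chr10:40339564-40483818, plus strand). Of Cdk19 the metastasis levels in venous cells were 76.2, 75.8 and 125 CPM against 24.0, 39.4, 49.8 and 30.9 CPM in unchallenged lung, and in aerocytes of metastasis replicate 5 it was 17.8 CPM against 19.0, 22.96, 33.0 and 30.5 CPM in unchallenged lung. Neither the position nor its relation to the levels was tested, and the pair was noticed after the values were seen.

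Ntrk2 had its highest level, 765 CPM, in metastasis replicate 4, whose 16 cells stood outside the test. In venous cells Ntrk2 was 2.67, 10.8, 6.46 and 2.38 CPM in unchallenged lung and 114, 55.4 and 88.8 CPM in metastasis replicates 1-3, 5 and 6, with 174 CPM in replicate 4.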
